A study of Homo sapiens with 18 samples.

Results

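Integrins and focal adhesion adaptors were followed here as 37 genes, taken by name from the 56629 gene symbols of the count tables. They were 17 integrin α subunits, 8 integrin β subunits, and 12 cytoplasmic proteins that link integrins to actin or signal from them. TNS1, an adaptor, was on the list because it was known to rise in 501mel lines without ARID2, so its change there is a description and carries no test. Gene expression was measured by sequencing polyadenylated RNA from 18 libraries of 9 lines, 2 libraries per line, all grown in DMEM with FBS. The series asked how the loss of ARID2, a DNA-binding subunit of the PBAF chromatin remodelling complex, alters expression in melanoma.

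In SKmel147, a metastatic melanoma cell line with the mutation labelled NRASQ61R, 3 lines with an ARID2 KO, named KO1.4, KO1.5 and KO3.20, were set against 2 control lines, NT and Par. These KO lines and NT were stably infected with Lenti-Cas9 and a PLKO construct for the sgRNA, and Par carried no construct. In 501mel, a metastatic melanoma cell line with the mutation labelled BRAFV600E, the KO lines KO1.8 and KO5.2 were set against the control lines NTC and Par. There the KO lines and NTC carried Lenti-CRISPR V2 with Cas9 and an sgRNA, and Par again carried none. The labels spell out neither NT nor NTC, and both are called transduced controls here. They also do not say whether a line was 1 clone or a pool, or whether its 2 libraries came from separate cultures, so the spread behind the p-values is that of these libraries and may be technical.

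Integrins are receptors made of 1 α and 1 β subunit that bind matrix proteins or other cells outside and couple to actin inside. Talin and kindlin bind the tail of the β subunit and switch the receptor on, vinculin strengthens the link to actin, and ILK, PINCH and parvin form a complex that sits on the same tails. Focal adhesion kinase (PTK2) and paxillin pass the signal on, and tensins tie older, centrally placed adhesions to actin. In melanoma, the set of integrins on a cell is known to differ between pigmented and dedifferentiated cells and to bear on invasion.

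Promoter windows of 300 bases, running from 250 before to 50 after a RefSeq start on GRCh38.p14, were at hand for 26 of the 37 members, as 38 windows. Those of 4 members, picked by name, are shown as examples. TNS1 and ITGA10 were higher in 501mel KO lines, and ILK had low counts in SKmel147. ITGA5 was called lower in SKmel147 KO lines against both controls together, though not against NT alone. Each of these 4 windows holds a motif named below. The windows of ITGA1, ITGA2 and TLN2, all called in 501mel, hold none of them. A link between motif and change was not tested. Capitals mark the letters GGAATG (TEAD), TGANTCA (AP-1), CACGTG (E-box) or CATGTG (M-box core), searched on both strands. These motifs do not overlap in the windows shown. Of the 5 TNS1 windows, the one shown is the farthest upstream of those that hold a TEAD match, so its match follows from that choice. Other TNS1 windows hold none, among them the one farther upstream at chr2:218010226-218010525.
TNS1 at chr2:217944021-217944320, minus strand, 1 of its 5 windows, with a TEAD match: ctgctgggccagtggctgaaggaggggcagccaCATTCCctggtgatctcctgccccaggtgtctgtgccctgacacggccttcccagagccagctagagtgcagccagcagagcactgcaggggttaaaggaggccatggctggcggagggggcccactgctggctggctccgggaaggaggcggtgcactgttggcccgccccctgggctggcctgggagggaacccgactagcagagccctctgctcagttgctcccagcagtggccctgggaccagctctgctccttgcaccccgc
ITGA10 at chr1:145910001-145910300, minus strand, with a TEAD match: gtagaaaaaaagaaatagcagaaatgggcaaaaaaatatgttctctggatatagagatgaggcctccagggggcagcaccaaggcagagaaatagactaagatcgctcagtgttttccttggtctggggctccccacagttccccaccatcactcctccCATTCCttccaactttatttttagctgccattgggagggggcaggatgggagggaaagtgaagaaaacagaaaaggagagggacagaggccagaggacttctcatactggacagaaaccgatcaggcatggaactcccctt
ITGA5 at chr12:54419217-54419516, minus strand, with a TEAD and an AP-1 match: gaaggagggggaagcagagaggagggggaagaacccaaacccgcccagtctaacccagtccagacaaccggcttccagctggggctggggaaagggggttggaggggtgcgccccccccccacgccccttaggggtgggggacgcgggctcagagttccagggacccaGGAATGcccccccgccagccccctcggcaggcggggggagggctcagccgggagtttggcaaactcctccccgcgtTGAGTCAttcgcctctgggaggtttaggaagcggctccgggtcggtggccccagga
ILK at chr11:6603524-6603823, plus strand, with an E-box match: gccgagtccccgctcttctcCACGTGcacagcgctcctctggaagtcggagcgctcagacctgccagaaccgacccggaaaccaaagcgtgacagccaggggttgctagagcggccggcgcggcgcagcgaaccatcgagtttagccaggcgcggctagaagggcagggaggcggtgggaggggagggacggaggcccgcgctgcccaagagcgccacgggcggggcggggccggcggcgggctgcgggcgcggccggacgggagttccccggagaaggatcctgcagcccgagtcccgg
The letters of the TEAD motif stood in 7 of the 38 member windows and in 14% of all 35116 windows. Those of AP-1 stood in 1 member window, that of ITGA5, against 7.71% of all windows. CACGTG stood in 2 member windows against 7.26% of all, and CATGTG in 3 against 11.1%. A match is only a run of letters, and binding was not measured.

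Totals were 21266522 to 35670140 counts per library in SKmel147 and 16749707 to 20606855 in 501mel. In each of the 9 lines the 2 libraries lay further apart than counting error allows: chi-square divided by its degrees of freedom was 15.05 to 39.2 over SKmel147 lines and 2.51 to 4.86 over 501mel lines. Levels below are in CPM, each count divided by the size of its library, scaled with TMM factors within each cell line. ARID2 RNA was at 39.8 to 57.0 CPM in the 6 KO libraries of SKmel147 against 62.3 to 72.8 CPM in its 4 control libraries, and at 19.8 to 32.0 against 40.9 to 43.2 CPM in 501mel. It differed from the controls in every KO line except KO1.4, where the edgeR quasi-likelihood test gave an adjusted p of 0.228. Of 8 melanocyte markers, 501mel had all 8 above 1 CPM in every library, while SKmel147 had MITF and SOX10 only. There PMEL, TYR, DCT and S100B were at 1.35 CPM or less, and MLANA at 1.46 CPM or less. TYRP1 was at 6.37 CPM in Par replicate 1 and at 0.697 CPM or less in the other SKmel147 libraries. The 1.35 CPM of PMEL was also in Par replicate 1. Most of the defining pigment markers were thus near 0 in SKmel147. Summed markers of other cell types stayed at 8.504 to 15.8 CPM in SKmel147, where LUM made up most of it, and at 2.00 to 3.61 CPM in 501mel.

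A gene was tested where it passed edgeR's filter on low counts, and called at a Benjamini-Hochberg (BH) adjusted p under 0.05 over all genes tested. This left 27 members in SKmel147, 25 in 501mel and 21 in both. Neither cell line passed ITGA2B, ITGA8, ITGA11, ITGAL, ITGB6 or ITGB7, among them the α subunits of platelets and lymphocytes. SKmel147 also failed on ITGA9, ITGAX, ITGB2 and TNS1, and 501mel on ITGA4, ITGA5, ITGAM, ITGB3, ITGB4 and FERMT1. ITGAM in SKmel147, and ITGA10, ITGAX and ITGB2 in 501mel, passed only because of the KO libraries. In GENCODE 29, 20 members share some exon bases with another gene. Among protein-coding genes, AC068234.1 shares 2266 bases with ITGB3 on the same strand, and AP3M1 shares 1109 with VCL on the opposite strand. The strand setting of the counting is not given in the sources used here. Counts of the 20 members could thus include reads of the other gene or lack some of their own.

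**Figure D1:**
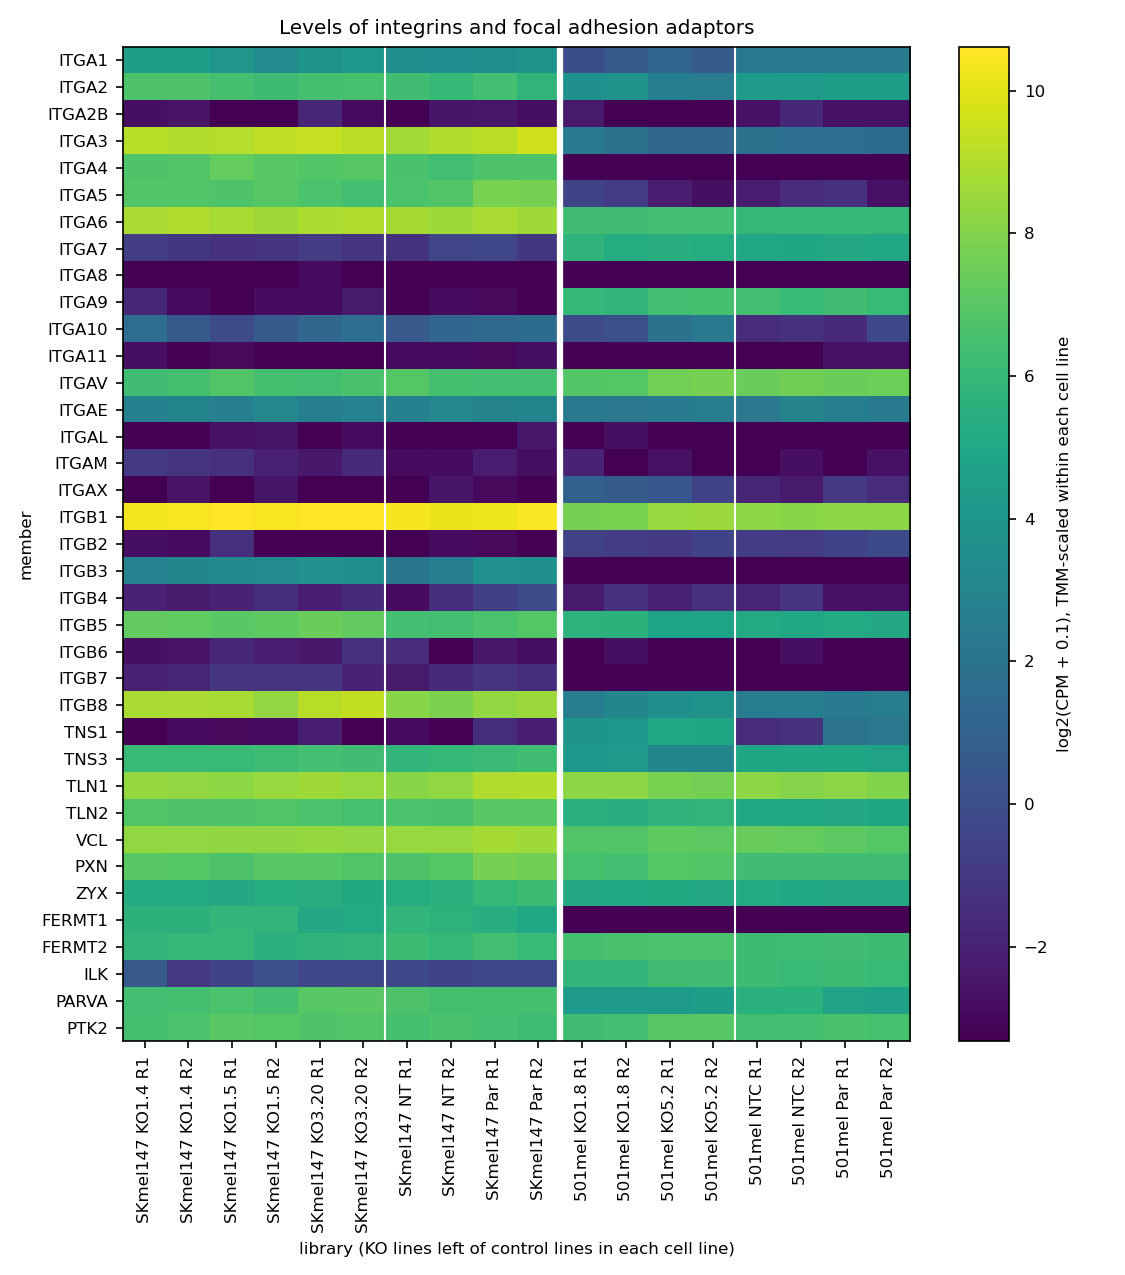
Levels of the 37 members as log2(CPM + 0.1), 1 column per library, with KO lines left of control lines in each cell line and SKmel147 left of 501mel. ITGA4, ITGB3 and FERMT1 have no counts in 501mel, and ILK and ITGA9 are near 0 in SKmel147.

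Without an ARID2 KO the cell lines used different receptors. SKmel147 expressed the α3, α4, α5 and α6 subunits, β8 and, at a low level, β3, while 501mel was at or near 0 for α4, α5 and β3 and low for α3 and β8. 501mel in turn expressed α7 and α9, which SKmel147 did not. The edgeR test of a joint fit called 27 of 30 members tested between the control lines, 20 higher and 7 lower in SKmel147, where 80.7% of all genes were called, 43.1% higher and 37.6% lower. Of the 27, 9 passed the filter in the control libraries of 1 cell line only or, for ITGAX and ITGB2, of neither, so their calls are fixed by the filter and their values are descriptions: FERMT1, ITGA4, ITGA5, ITGB3, ITGA9, TNS1, ITGAX, ITGB2 and ITGA10. Cell line and count table cannot be told apart in this comparison.

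ITGA4, the α subunit of the VCAM1 receptor, had 84.9 to 112 CPM in the SKmel147 control libraries and no count in any 501mel library, so it was at least 2450-fold higher against a floor of 3 counts over the 4 control libraries. FERMT1 (kindlin-1) was at 31.7 to 58.9 CPM against 0, at least 1164-fold higher, and ITGB3, the β subunit of the vitronectin receptor αvβ3, was at 4.46 to 13.2 CPM against 0, at least 221-fold higher. All 3 had 0 counts in the 501mel KO libraries too. ITGA5, the fibronectin receptor subunit, stood at 103 to 227 CPM in SKmel147 and 0.0574 to 0.285 CPM in 501mel, a log2 difference of 9.75 ± 0.17 (SE). ITGA3, a laminin receptor subunit, at 423 to 797 CPM in SKmel147 and 2.87 to 3.39 CPM in 501mel, differed by 7.49 ± 0.15 and ITGB8, which pairs with αv to bind latent TGF-beta, by 5.74 ± 0.14 on the log2 scale. ITGA3 and ITGB8 each had an edgeR adjusted p of 2.9e-16 or less.

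On the other side, ITGA9, a receptor subunit for tenascin-C, had 2 counts in all 4 SKmel147 control libraries together against 66.1 to 80.8 CPM in those of 501mel. The 501mel level was 4170 times as high, with a 95% counting interval of 1154 to 34438. ITGA7, the laminin receptor subunit of muscle, was at 0.311 to 0.687 CPM in SKmel147 and 29.5 to 32.8 CPM in 501mel (log2 difference −5.91 ± 0.17). ITGB2, TNS1 and ITGAX were lower in SKmel147 as well, with log2 differences of −4.59, −3.89 and −2.79. The highest 501mel control library had only 0.747, 4.31 and 0.399 CPM of them. The TNS1 level of 501mel came mostly from Par, with 65 and 75 counts, against 4 and 6 in NTC. SKmel147 control libraries had 0 to 9 counts of TNS1.

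ILK encodes the scaffold of the ILK, PINCH and parvin complex and is expressed in most adherent cells. In SKmel147 it had 0.622 and 0.990 CPM in KO1.5, 1.37 and 0.412 CPM in KO1.4, 0.673 and 0.697 CPM in KO3.20, 0.747 and 0.612 CPM in NT, and 0.758 and 0.731 CPM in Par. In 501mel it had 56.7 and 57.7 CPM in KO1.8, 81.2 and 81.8 CPM in KO5.2, 75.5 and 70.6 CPM in NTC, and 74.8 and 70.0 CPM in Par. These groups lie far apart: 12 to 29 counts per SKmel147 library stand against 1089 to 1627 per 501mel library. The log2 difference between the control lines was −6.60 ± 0.17 (edgeR adjusted p = 7.25e-16). The genes of its partners differed both ways: PARVA was higher in SKmel147 by 1.51 ± 0.07, LIMS1 (PINCH1) by 1.09 ± 0.09 and RSU1, which binds PINCH1, by 1.02 ± 0.07 on the log2 scale. PARVB (β-parvin) was lower, at 28.5 to 36.995 CPM in SKmel147 and 84.8 to 97.2 CPM in 501mel controls, with a log2 difference of −1.38 ± 0.08 (edgeR adjusted p = 3.96e-11). TAF10, which shares 33 exon bases with ILK on the opposite strand, was at 38.6 to 56.0 CPM in SKmel147 and 43.2 to 63.0 CPM in 501mel. AC091564.2 and AC091564.3 share 302 and 263 exon bases with ILK, also on the opposite strand. Whether the low ILK count reflects the cells or the counting was not tested.

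Per kilobase of exon, ITGB1 had the highest control-line level of any member in both cell lines, at 341 ± 11.6 CPM per kb in SKmel147 and 72.0 ± 0.498 in 501mel (SD between the 2 control lines). As the β1 subunit, it partners most of the α subunits listed here. ITGA3 at 118 ± 32.1 and ITGA6 at 72.8 ± 3.32 CPM per kb followed in SKmel147; ITGA3 lay above ITGA6 in each library. In 501mel, ILK at 30.8 ± 0.249 and TLN1 at 30.5 ± 1.36 CPM per kb came next and did not differ beyond their spread.

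**Figure D2:**
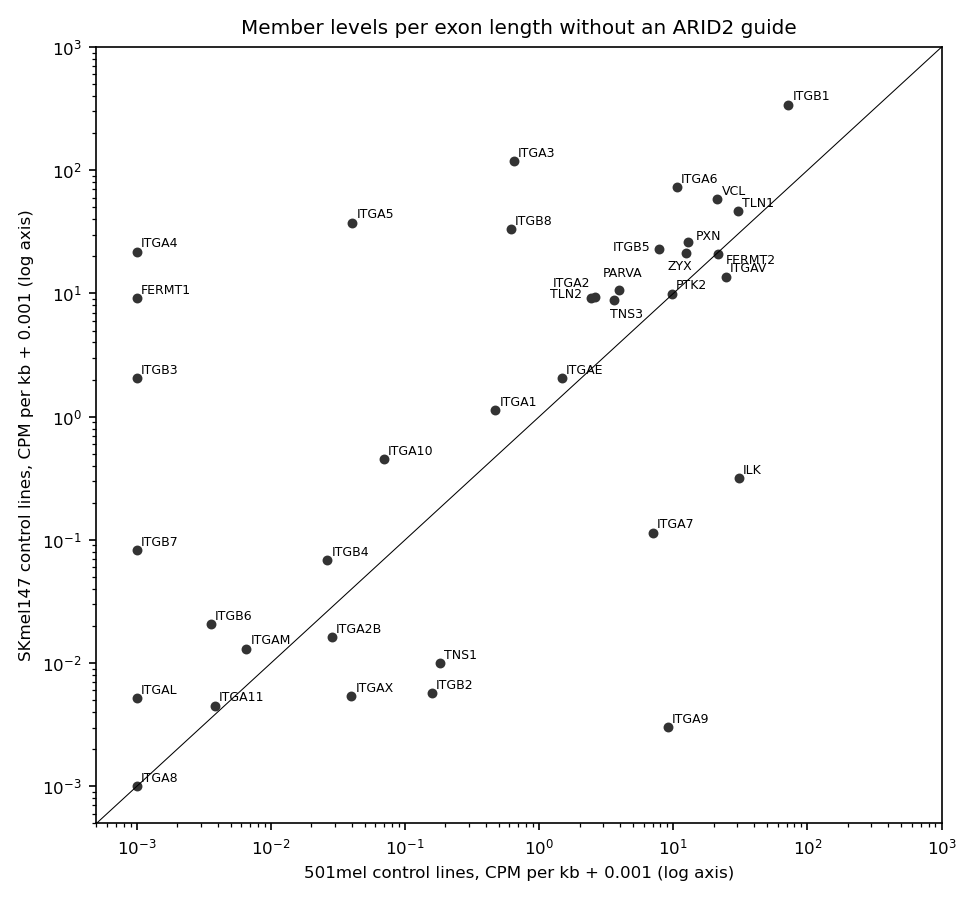
Mean level per kilobase of exon in the control lines, SKmel147 on the y axis and 501mel on the x axis, both logarithmic with 0.001 CPM per kb added. Points on the left edge have no counts in 501mel; ILK, ITGA7 and ITGA9 lie far below the line of equal levels.

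In 501mel KO lines the collagen receptor subunits α1 and α2, the tensin TNS3 and the parvin PARVA fell, while TNS1, the laminin receptor subunits α6 and α7, talin-2, kindlin-2 and paxillin were higher. The edgeR test called 17 of 25 members between KO and control lines, 10 higher and 7 lower, where 51.3% of all genes were called, 24.7% higher and 26.5% lower. In the same direction in each KO line it called 12 of 25 members, 8 higher and 4 lower, against 24% of all genes. KO and control libraries did not overlap for 12 of the 25 members tested, against 27.1% of genes. They were the same 12 members, and both counts rest on the same libraries. TNS1 is 1 of the 12 and was chosen for it, and ITGA10 and ITGAX entered the test through their KO libraries, so that these counts support nothing by themselves. With each line as 1 replicate, edgeR called 0 of 25 members and 0% of genes. There 11 members, TNS1, ITGA10 and ITGAX among them, had an unadjusted p under 0.05, as did 13.8% of genes. A voom fit with the line as block called ITGA1, ITGA2, ITGA6, TLN2, TNS1 and TNS3, and 6.14% of genes.

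Among the receptors of collagen, ITGA1 was at 0.936 and 1.45 CPM in KO1.8 and 2.26 and 1.51 CPM in KO5.2, against 5.353 and 4.81 CPM in NTC and 5.39 and 5.204 CPM in Par. Every KO library was below every control library. The log2 fold change was −1.78 ± 0.17 (SE; edgeR adjusted p = 6.96e-07). ITGA2 was at 12.6 and 13.9 CPM in KO1.8 and 6.46 and 5.63 CPM in KO5.2, against 19.4 and 20.1 CPM in NTC and 22.1 and 22.2 CPM in Par. KO5.2 was the lower of the KO lines, and the mean change was −1.22 ± 0.07 (edgeR adjusted p = 6.49e-09). The reads of ITGA1 are uncertain, since PELO shares 475 of its exon bases on the same strand.

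ITGA10, a collagen receptor subunit of cartilage, went the other way from a level near 0. It was at 0.833 and 0.967 CPM in KO1.8 and 3.73 and 4.93 CPM in KO5.2, against 0.238 and 0.294 CPM in NTC and 0.234 and 0.710 CPM in Par, or 4 to 12 counts in a control library. KO5.2 had the highest values and the groups did not overlap; the fitted log2 fold change was 2.45 ± 0.31. It entered the test only through its high KO libraries, so this value is a description. ITGAX, the α subunit of a leukocyte receptor, was at 1.93 and 1.55 CPM in KO1.8 and 1.21 and 0.603 CPM in KO5.2, against 0.178 and 0.0981 CPM in NTC and 0.410 and 0.237 CPM in Par. Its β partner ITGB2 stayed at 0.420 to 0.603 CPM in KO libraries and 0.441 to 0.769 CPM in control libraries, with PTPRC, a pan-leukocyte marker, at 0 in all 8 libraries.

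Of the laminin receptor subunits, ITGA6 was at 79.8 and 80.6 CPM in KO1.8 and 86.7 and 87.0 CPM in KO5.2, against 63.0 and 64.6 CPM in NTC and 63.8 and 61.9 CPM in Par. ITGA7 was at 52.7 and 39.7 CPM in KO1.8 and 43.5 and 39.2 CPM in KO5.2, against 33.1 and 30.1 CPM in NTC and 33.7 and 33.2 CPM in Par. Both were higher in every KO library than in any control library, ITGA6 by 0.40 ± 0.04 (edgeR adjusted p = 1.37e-06) and ITGA7 by 0.43 ± 0.08 (0.000356) on the log2 scale. ITGA3 was at 5.41 and 3.63 CPM in KO1.8 and 2.47 and 2.41 CPM in KO5.2, against 2.96 to 3.51 CPM in control libraries. Its KO lines lay on opposite sides of the controls, and their mean was not called (0.04, edgeR adjusted p = 0.84).

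Of the β subunits only ITGB8 was called on the mean of the KO lines, at 5.93 and 8.41 CPM in KO1.8 and 11.98 and 14.4 CPM in KO5.2, against 5.59 and 6.18 CPM in NTC and 5.56 and 5.91 CPM in Par. The KO5.2 libraries were high, and those of KO1.8 overlapped the controls. The log2 fold change of 0.74 ± 0.12 (edgeR adjusted p = 0.000116) became 0.31 without KO5.2 and was then no longer called.

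TNS1 encodes tensin-1, which ties the β tail of mature adhesions to actin. It was at 14.9 and 15.7 CPM in KO1.8 and 32.6 and 30.2 CPM in KO5.2, against 0.238 and 0.294 CPM in NTC and 3.81 and 4.44 CPM in Par. The control lines lay far apart, and every KO library was above both of them. By description, the mean log2 change was 4.36, and NTC minus Par was −3.91. In SKmel147, TNS1 had at most 9 counts in any library, KO or control, and was not tested.

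TNS3, another tensin, fell in the KO lines. It was at 17.4 and 18.03 CPM in KO1.8 and 8.46 and 8.35 CPM in KO5.2, against 30.2 and 29.5 CPM in NTC and 30.2 and 25.6 CPM in Par. The control lines were alike and both KO lines were below them, KO5.2 further than KO1.8, with a log2 change of −1.24 ± 0.07 (edgeR adjusted p = 2.95e-09). TENC1 (TNS2), from the list of other adhesion proteins, was higher in KO lines by 0.64 ± 0.05 (edgeR adjusted p = 2.1e-07).

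PARVA encodes α-parvin, the actin-binding part of the ILK complex. It was at 17.6 and 19.4 CPM in KO1.8 and 19.0 and 21.8 CPM in KO5.2, against 46.0 and 48.1 CPM in NTC and 25.9 and 25.4 CPM in Par. NTC stood well above Par (0.88 ± 0.08 on the log2 scale, edgeR adjusted p = 6.03e-06), and all KO libraries were below both control lines, with a mean change of −0.84 ± 0.06 (5.6e-08). ILK itself was not called on the mean (−0.09, edgeR adjusted p = 0.0957). Chromosome 11, which carries PARVA and ILK, had a median log2 change of −0.26 in KO1.8 and 0.02 in KO5.2. The part of this in the PARVA value was not tested.

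Talin-2 (TLN2) was at 46.5 and 44.4 CPM in KO1.8 and 53.6 and 55.4 CPM in KO5.2, against 33.2 and 33.0 CPM in NTC and 33.4 and 30.5 CPM in Par, a log2 change of 0.61 ± 0.05 (edgeR adjusted p = 1.29e-07). Its chromosome, 15, had a median log2 change of 0.22 over all genes tested on it, and the part of this in the TLN2 value was not tested. FERMT2 (kindlin-2) was at 91.0 and 97.5 CPM in KO1.8 and 101 and 101 CPM in KO5.2, against 75.8 and 77.3 CPM in NTC and 81.2 and 76.1 CPM in Par (0.33 ± 0.04, edgeR adjusted p = 1.4e-05). PXN (paxillin) was at 94.5 and 88.3 CPM in KO1.8 and 120 and 117 CPM in KO5.2, against 80.7 and 80.9 CPM in NTC and 81.0 and 81.6 CPM in Par (0.36 ± 0.04, edgeR adjusted p = 3.8e-06). For all 3 genes the KO libraries lay above every control library. Zyxin (ZYX) was flat, at 32.6 to 35.0 CPM in KO libraries and 33.2 to 36.3 CPM in control libraries (−0.01, adjusted p = 0.876).

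**Figure D3:**
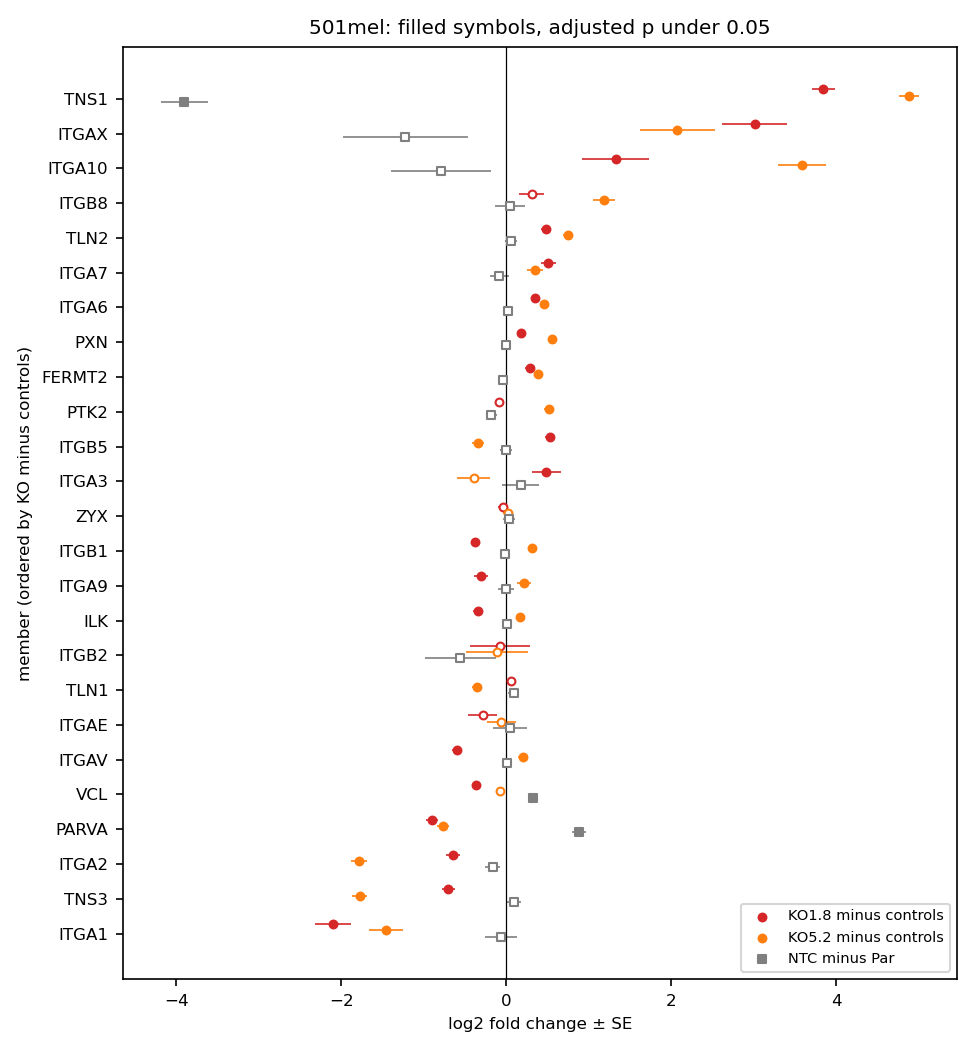
Log2 fold changes with their standard errors for the 25 members tested in 501mel, for KO1.8 and KO5.2 minus the controls and for NTC minus Par; filled symbols have an edgeR adjusted p under 0.05. ITGB1, ITGAV, ITGB5, ITGA3, ITGA9 and ILK are among the members with their KO lines on opposite sides of 0.

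Several members called on the mean or in 1 KO line moved in opposite directions in KO1.8 and KO5.2. A direct comparison of KO5.2 with KO1.8 called 17 of 25 members by the edgeR test, 11 higher and 6 lower in KO5.2, where 41.3% of all genes were called, 20.6% higher and 20.7% lower. ITGB1 was at 357 and 361 CPM in KO5.2 and 219 and 227 CPM in KO1.8, with 300 and 278 CPM in NTC and 298 and 287 CPM in Par, so the KO lines lay on either side of the controls (KO5.2 minus KO1.8, 0.69 ± 0.05, adjusted p = 3e-07). ITGAV, the subunit of the vitronectin receptors, was at 198 and 218 CPM in KO5.2 and 116 and 123 CPM in KO1.8, with 174 and 189 CPM in NTC and 177 and 185 CPM in Par (0.80 ± 0.06, edgeR adjusted p = 3.28e-07). Its mean change of −0.20 ± 0.04 over both KO lines (edgeR adjusted p = 0.00158) rests on KO1.8, since without KO1.8 it was 0.19. ITGB5, another partner of αv, went the other way, at 27.5 and 27.3 CPM in KO5.2 and 51.1 and 49.4 CPM in KO1.8, with 33.0 to 36.6 CPM in the control libraries.

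On the log2 scale against the controls, ILK was at 0.17 in KO5.2 and −0.35 in KO1.8, and ITGA9 at 0.21 in KO5.2 and −0.31 in KO1.8, all called by the edgeR test. Genes tested on chromosome 11, which carries ILK, had a median of 0.02 in KO5.2 and −0.26 in KO1.8. PTK2, the focal adhesion kinase, was at 126 and 130 CPM in KO5.2 and 79.9 and 88.7 CPM in KO1.8, with 83.9 and 84.2 CPM in NTC and 98.3 and 92.6 CPM in Par. TLN1 (talin-1) was at 221 and 210 CPM in KO5.2 and 288 and 287 CPM in KO1.8, with 298 and 272 CPM in NTC and 287 and 250 CPM in Par. Both were called on the mean of the KO lines, but rest on KO5.2: without it the log2 change was −0.09 for PTK2 and 0.06 for TLN1. Against Par alone neither was called (0.12 and −0.11). In KO5.2 all genes tested on chromosome 8, which carries PTK2, had a median log2 change of 0.31, and those on chromosome 9, which carries TLN1, one of −0.51; in KO1.8 these medians were near 0. The part of these shifts in PTK2 and TLN1 was not tested. VCL (vinculin) was at 114 and 112 CPM in KO1.8 and 141 and 135 CPM in KO5.2, against 166 and 160 CPM in NTC and 138 and 122 CPM in Par, and its mean change of −0.22 ± 0.04 (edgeR adjusted p = 0.00081) was no longer called without KO1.8, or against Par alone (−0.06).

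**Figure D4:**
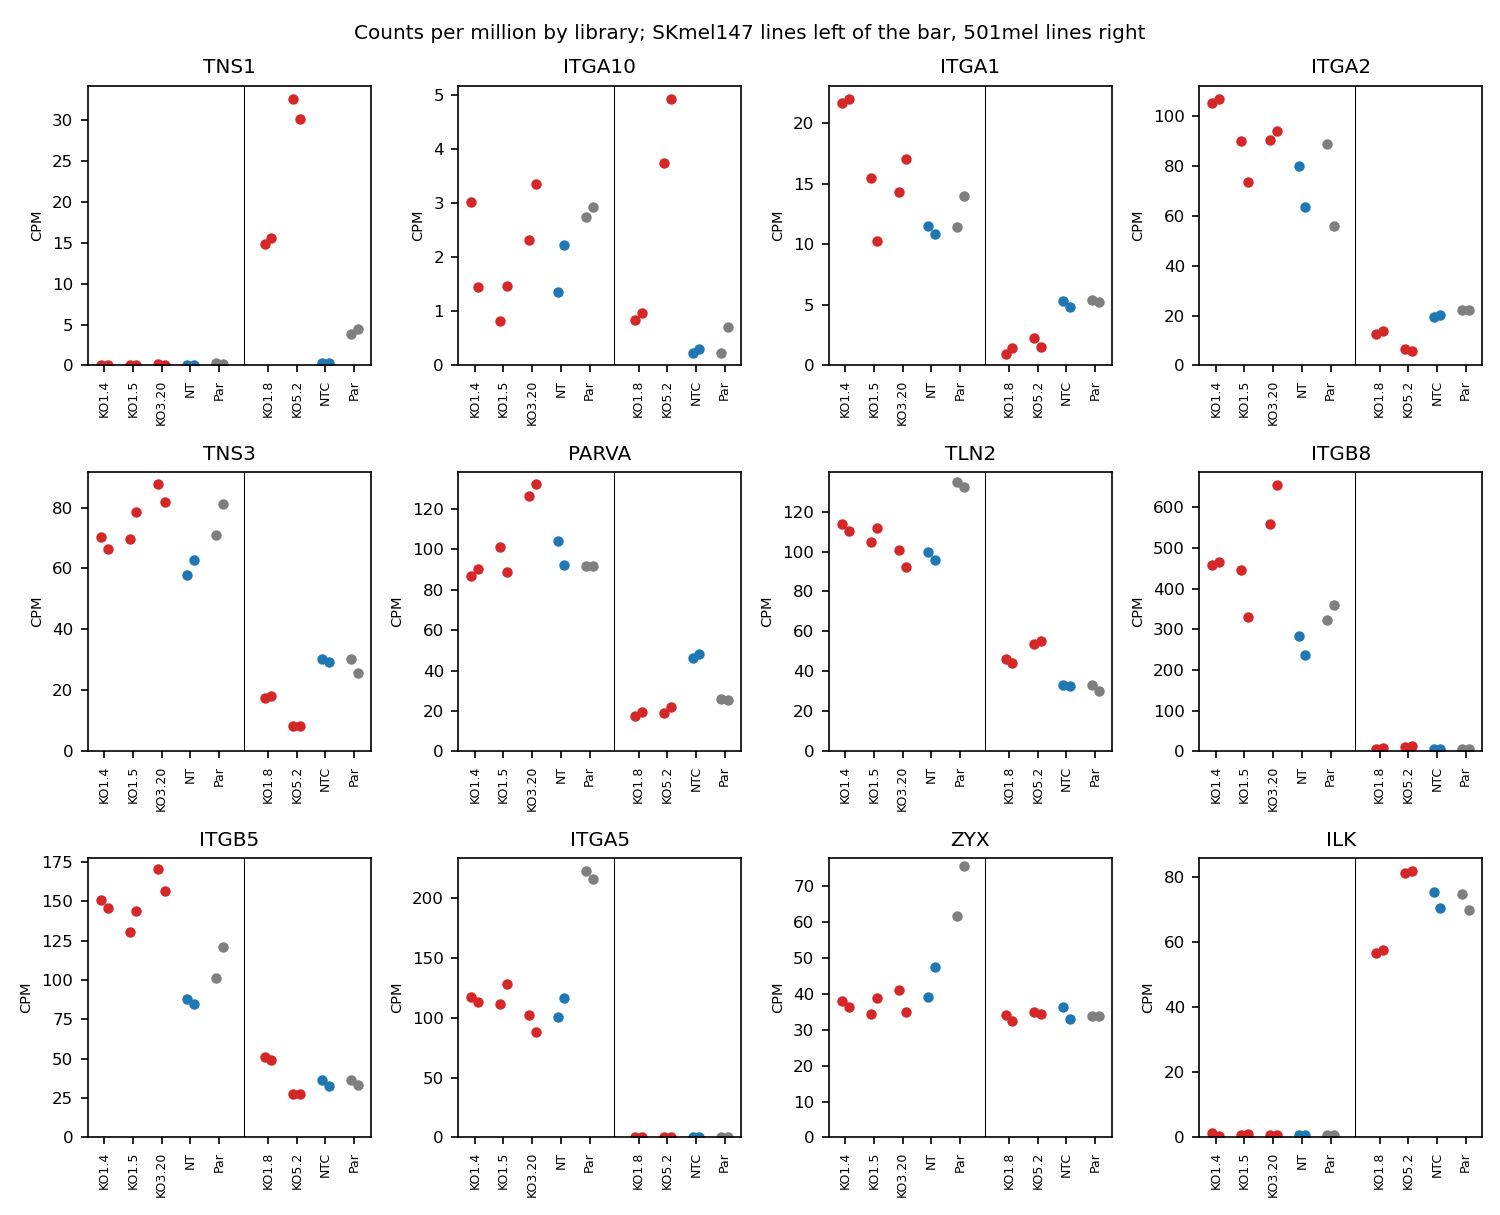
CPM of 12 members in every library, 1 point per library, with SKmel147 left of the bar and 501mel right, KO lines in red, transduced controls in blue and Par in grey; axes start at 0. ITGA5 and ZYX are highest in SKmel147 Par, and TNS1 is above the controls in every 501mel KO library.

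In SKmel147 KO lines the β subunits β5 and β8 and the focal adhesion kinase were higher than the mean of the control lines, while the fibronectin receptor subunit α5, zyxin, vinculin, kindlin-2 and paxillin were lower than that mean. Against NT alone none of these 5 lower calls held, and those of α5 and paxillin turned sign. The edgeR test called 11 of 27 members, 6 higher and 5 lower, where 17.7% of all genes were called, 8.07% higher and 9.6% lower. ITGAM is 1 of the 6 higher. It entered the test only through its KO libraries, so its call is a description and adds no support to the count. In every KO line with 1 sign the edgeR test called ITGB5, ITGA5 and ZYX, 3 of 27 members against 3.39% of genes. Without KO1.4 replicate 1 or replicate 2 the first count was 7, and without KO3.20 replicate 2 it was 6; the count over every KO line was 0 without KO1.4 replicate 1 and 1 without any other single KO library. ITGB5, VCL and FERMT2 had KO and control libraries that did not overlap, 3 of 27 members against 8.58% of genes. With each line as 1 replicate, edgeR called 0 of 28 members and 0.0659% of genes. An unadjusted p under 0.05 held for 9 members, ITGAM among them, against 12.7% of genes. The voom fit with the line as block called ITGB5 alone and 3.28% of genes.

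ITGB5 was at 151 and 146 CPM in KO1.4, 130 and 144 CPM in KO1.5 and 170 and 156 CPM in KO3.20, against 87.8 and 84.5 CPM in NT and 101 and 121 CPM in Par. Every KO library was above every control library, and the log2 change was 0.61 ± 0.08 (edgeR adjusted p = 0.00023). ITGB8 was at 457 and 465 CPM in KO1.4, 446 and 330 CPM in KO1.5 and 559 and 655 CPM in KO3.20, against 284 and 236 CPM in NT and 324 and 361 CPM in Par. One KO1.5 library lay within the range of Par, and the change was 0.68 ± 0.10 (edgeR adjusted p = 0.000734), called in KO1.4 and KO3.20 and not in KO1.5. Both β5 and β8 pair with αv, whose gene ITGAV did not change on the mean (−0.05, edgeR adjusted p = 0.780).

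ITGA5 was at 117 and 113 CPM in KO1.4, 111 and 128 CPM in KO1.5 and 102 and 88.1 CPM in KO3.20, against 101 and 116 CPM in NT and 222 and 216 CPM in Par. The KO libraries were all far below Par and spread around NT, and the log2 change of −0.50 ± 0.08 (edgeR adjusted p = 0.00103) rests on Par: against NT alone it was 0.01. ZYX was at 38.0 and 36.3 CPM in KO1.4, 34.4 and 38.9 CPM in KO1.5 and 41.2 and 34.8 CPM in KO3.20, against 39.1 and 47.6 CPM in NT and 61.8 and 75.8 CPM in Par (−0.55 ± 0.09, edgeR adjusted p = 0.00206). Against NT alone its change was −0.22 and was not called. PXN was at 106 to 135 CPM in KO libraries, against 105 and 123 CPM in NT and 217 and 192 CPM in Par, with a log2 change of −0.32 that became 0.10 against NT alone.

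The control lines of SKmel147 differed in this group of genes. Of 27 members, NT was lower than Par for 7 by the edgeR test, where 9.27% of all genes were called and 5.45% were lower: ITGA3, ITGA5, ITGB3, TLN1, TLN2, PXN and ZYX. Without NT replicate 1 the count was 4. Among these 7 the largest differences were those of ITGB3 (−1.33 ± 0.17, edgeR adjusted p = 0.00118) and ITGA5 (−1.01 ± 0.12, edgeR adjusted p = 0.000619). ITGB4, below 1 CPM throughout, had a value of −2.20 ± 0.70 and was not called (edgeR adjusted p = 0.0703). Over all genes, NT minus Par ran with GC content of the transcript (Spearman −0.405 across 15367 genes), against −0.0621 for KO minus controls. After a correction for GC content and length, NT minus Par was −0.88 for ITGA5, −0.56 for PXN and −0.27 for ZYX. Chromosome 12, which carries ITGA5 and PXN, had a median NT minus Par of −0.26 on the log2 scale. The part of this in their values was not tested. In 501mel, NTC differed from Par for 3 of 25 members, TNS1, VCL and PARVA, where 15.7% of all genes were called.

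Of the other members called in SKmel147, PTK2 was at 90.1, 113 and 133 CPM (lowest, median and highest of the 6 KO libraries), against 78.2 to 96.6 CPM in controls (0.34 ± 0.07, edgeR adjusted p = 0.00629). ITGA4 was at 109, 124 and 162 CPM in KO libraries against 83.4 to 110 CPM in controls (0.37 ± 0.08, edgeR adjusted p = 0.00905), and ITGA1 at 10.3, 16.2 and 21.9997 CPM against 10.8 to 13.9 CPM (0.47 ± 0.13, edgeR adjusted p = 0.0232). All 3 overlapped the controls, and none was called in each KO line. Chromosome 8, which carries PTK2, had a median log2 change of 0.10 on the mean of the KO lines. It was 0.19 in KO1.5, 0.08 in KO1.4, 0.08 in KO3.20 and 0.22 for NT minus Par. The part of this in the PTK2 value was not tested. VCL was at 310, 321 and 335 CPM in KO libraries against 355 to 432 CPM in controls (−0.26 ± 0.06, edgeR adjusted p = 0.0115), and FERMT2 at 46.8, 56.5 and 61.0 CPM against 61.6 to 84.8 CPM (−0.37 ± 0.10, edgeR adjusted p = 0.0264); neither overlapped. Against NT alone the calls of PTK2 (0.25), VCL (−0.15) and FERMT2 (−0.29) were lost, and against Par alone those of ITGA4 (0.25) and ITGA1 (0.38). FERMT2 and ITGA1 also lost theirs without either KO1.4 library or without KO3.20 replicate 2, among others. ITGAM, also called, had 3 to 10 counts in a KO library against 1 to 4 in a control library. It passed the filter only through the KO libraries, so its call is a description. KRT14, from the markers of other cell types, was at 1.57 to 2.55 CPM in KO libraries against 0.559 to 0.972 CPM in controls, and its part in these results was not tested.

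**Figure D5:**
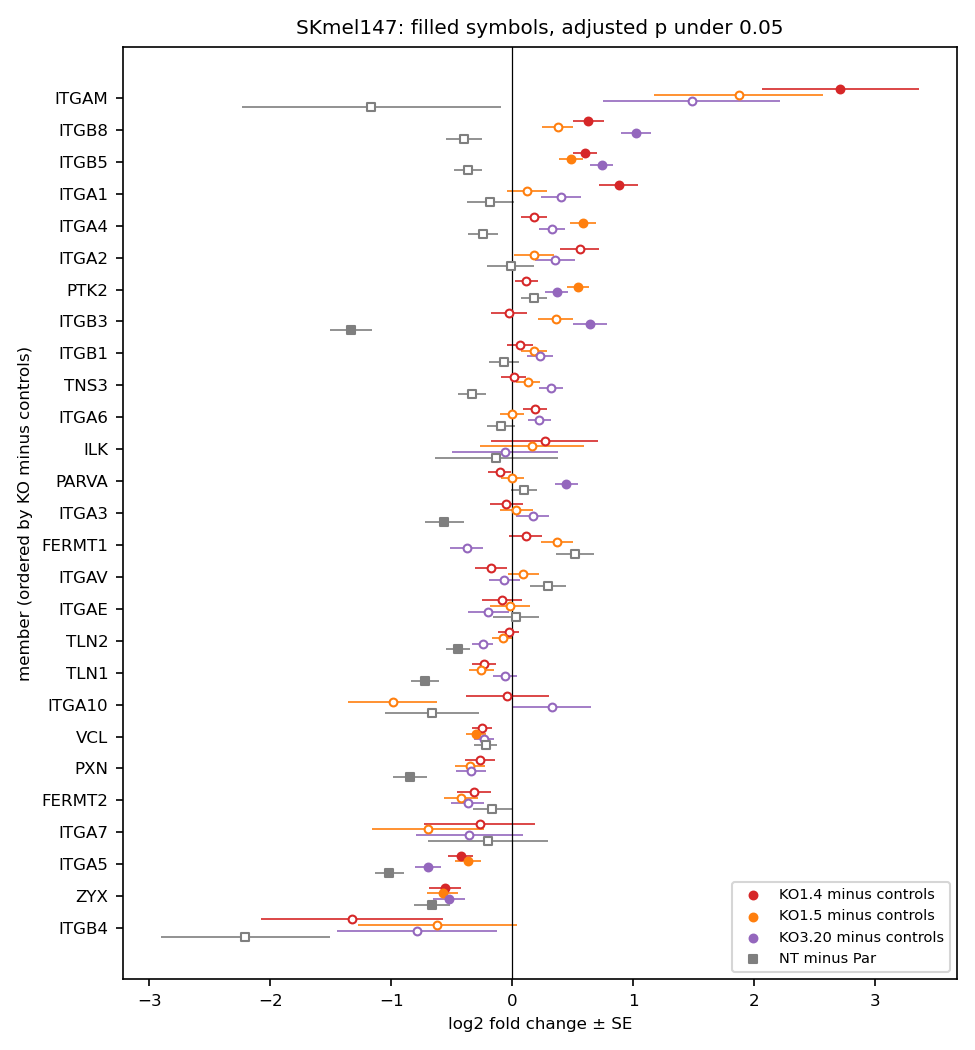
Log2 fold changes with their standard errors for the 27 members tested in SKmel147, for KO1.4, KO1.5 and KO3.20 minus the controls and for NT minus Par; filled symbols have an edgeR adjusted p under 0.05. The 3 KO lines lie close together for ITGB5, ZYX, VCL and PXN, and NT minus Par is filled and negative for 7 members.

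Of the 16 members tested and not called in SKmel147, ITGB1 was at 1314, 1484 and 1566 CPM in KO libraries against 1171 to 1456 CPM in controls, with a log2 change of 0.16 (edgeR adjusted p = 0.206). ITGB3 was not called on the mean (0.32), and its KO3.20 libraries, at 12.9 and 11.9 CPM, were called higher alone, with 4.38 and 5.65 CPM in NT and 12.9 and 12.3 CPM in Par. The talins TLN1 and TLN2, both lower in NT than in Par, changed by −0.18 and −0.12, and the laminin receptor subunits ITGA3 and ITGA6 by 0.05 and 0.14. The remaining 10 were ITGA2, ITGA7, ITGA10, ITGAV, ITGAE, ITGB4, TNS3, FERMT1, ILK and PARVA. In 501mel the 8 members not called on the mean were ITGA3, ITGA9, ITGAE, ITGB1, ITGB2, ITGB5, ZYX and ILK.

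Pairs of SKmel147 KO lines were also compared. PARVA, FERMT1 and ITGB8 were called in at least 1 of the pairs by the edgeR test, 3 of 27 members, where 6.61% of all genes were called. PARVA was at 126 and 132 CPM in KO3.20, above 86.6 and 89.99 CPM in KO1.4 and 101 and 88.9 CPM in KO1.5. FERMT1 was at 34.0 and 36.2 CPM in KO3.20 against 59.8 and 57.8 CPM in KO1.5, a log2 difference of −0.75 ± 0.16 (edgeR adjusted p = 0.0178). Its chromosome, 20, had a median log2 difference of −0.28 in this comparison, and the part of this in the FERMT1 value was not tested. The count was 0 without either library of KO3.20, 1 without either of KO1.4 or without KO1.5 replicate 2, and 5 without Par replicate 2.

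Of the 21 members tested in both cell lines, 6 were called in both. Over all genes tested in both, 11.2% were called in both, 7.32% in the same direction and 3.86% in opposite ones. On the mean of the KO lines, ITGB8 and PTK2 were higher and VCL lower in both cell lines. None of these 3 was called in each KO line of either. The SKmel147 calls of PTK2 and VCL were lost against NT alone, and their 501mel calls against Par alone. On the mean of the KO lines against both controls, ITGA1 was higher in SKmel147 and lower in 501mel, and PXN and FERMT2 the reverse. For the first 3 the difference of the KO effects was −0.06 ± 0.17 for ITGB8, 0.14 ± 0.09 for PTK2 and −0.03 ± 0.07 for VCL, and was not called for any of them. The difference of the KO effects was tested in the joint fit. The edgeR test called 12 of 30 members, where 21.3% of all genes were called. Among the 12 are TNS1, chosen for its rise, and ITGA10, which passed the 501mel filter only through its KO libraries. The count thus supports nothing by itself. The smallest p-values were those of TNS3 (difference of log2 changes 1.41 ± 0.10, edgeR adjusted p = 6.54e-08), ITGA1 (2.26 ± 0.23, edgeR adjusted p = 1.88e-06) and PARVA (0.96 ± 0.10, edgeR adjusted p = 2.77e-06). TNS3 and PARVA fell in 501mel KO lines and were not called in SKmel147, where TNS3 was at 66.5 to 87.7 CPM in KO libraries and 57.7 to 81.1 CPM in control libraries. Lines as replicates left 0 of 32 members and 0.014% of genes called by edgeR. There 10 members, TNS1 and ITGA10 among them, had an unadjusted p under 0.05, against 10.3% of genes. The voom fit called ITGA1, ITGA2, TLN2 and TNS3, and 2.28% of genes.

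Of 53 other focal adhesion proteins, 46 were tested in SKmel147 and 13 called, 4 higher and 9 lower in KO lines, where 17.7% of all genes were called, 8.07% higher and 9.6% lower, with a median log2 change of −0.03 against −0.01 over all genes. PPFIBP1, a liprin, rose by 0.40 ± 0.07 and was called in all 3 KO lines. TGFB1I1 (Hic-5), a paxillin relative, was at 5.60 ± 1.44 CPM in KO lines and 14.03 ± 7.44 CPM in control lines (SD over 3 and 2 lines) with a change of −1.25 ± 0.12. RSU1 fell by 0.59 ± 0.07, and CSRP1 and LASP1, both LIM proteins of actin bundles, by 0.58 each. For these 5 the edgeR adjusted p was 0.00193 or less. TGFB1I1, RSU1 and LASP1 were also lower in NT than in Par, and against NT alone RSU1 (−0.15) and PPFIBP1 (0.28) were not called.

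In 501mel, 44 of the 53 were tested and 28 called, 18 higher and 10 lower, where 51.3% of all genes were called, 24.7% higher and 26.5% lower. The median log2 change was 0.11 against −0.01. The scaffold NEDD9, known for its part in melanoma cell movement, was at 122 ± 37.8 CPM in KO lines and 76.8 ± 17.9 CPM in control lines, and rose by 0.66 ± 0.04. By line it was at 95.4 and 95.7 CPM in KO1.8 and 148 and 149.9 CPM in KO5.2, against 63.3 and 64.8 CPM in NTC and 93.9 and 85.0 CPM in Par, so that KO1.8 lay close to Par. ACTN4, an actin crosslinker, rose by 0.55 ± 0.04 and GIT1, which binds paxillin, by 0.46 ± 0.04. EVL, an actin filament elongation factor, fell by 2.74 ± 0.17 on the mean, with −0.01 in KO1.8 and −5.46 in KO5.2, where its chromosome, 14, had a median of −0.41. TRIP6, a zyxin relative, fell by 0.46 ± 0.05, with −0.23 against Par alone. It was at 40.1 and 41.5 CPM in KO1.8 and 33.5 and 34.2 CPM in KO5.2. NTC had 62.9 and 57.8 CPM and Par 45.7 and 41.5 CPM of it, so that KO1.8 lay close to Par. For these mean changes against both controls the edgeR adjusted p was 3.15e-06 or less. NEDD9 was also called higher in SKmel147, by 0.53 ± 0.10 (edgeR adjusted p = 0.0035), but not against NT alone (0.38).

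Of 40 matrix and cell-surface ligands, 32 were tested in SKmel147 and 13 called, 9 higher and 4 lower, against the same 17.7% of all genes, with a median of 0.03. COL1A1, a collagen chain, was at 6.99 ± 0.529 CPM in KO lines and 2.23 ± 0.472 CPM in control lines, and LAMA4, a laminin chain, at 8.89 ± 1.10 and 3.50 ± 0.232 CPM; they rose by 1.67 ± 0.21 and 1.33 ± 0.17, in all 3 KO lines. FN1, the ligand of α5β1, rose by 0.70 ± 0.06, and TNC, the tenascin bound by α9, fell by 0.62 ± 0.08. NT was lower than Par by over 1.2 on the log2 scale for both, and each mean call rests on 1 control. Against Par alone the change of FN1 was 0.05, and against NT alone that of TNC was 0.01, neither called. FN1 was at 306 and 294 CPM in KO3.20, above Par at 179 and 185 CPM. It was below Par in KO1.4, at 167 and 162 CPM, and in KO1.5, at 140 and 134 CPM. NT had 73.1 and 76.1 CPM of FN1. TNC was at 447 to 594 CPM in KO libraries, against 466 and 572 CPM in NT and 1220 and 1266 CPM in Par. In 501mel, 23 were tested and 18 called, 6 higher and 12 lower, against 51.3% of all genes, with a median of −0.32 against −0.01. LAMB1, a laminin chain, was at 87.1 ± 30.8 CPM in KO lines and 192 ± 42.3 CPM in control lines and fell by 1.17 ± 0.04, and CYR61, a matricellular ligand of αv integrins, fell by 1.33 ± 0.09 on the mean. CYR61 was at 10.7 and 9.91 CPM in KO1.8 and 2.73 and 2.92 CPM in KO5.2, against 16.9 and 19.3 CPM in NTC and 10.1 and 10.3 CPM in Par, so that KO1.8 lay near Par. LAMA4, higher in SKmel147 KO lines, fell by 0.93 ± 0.07 here, with −1.71 in KO5.2 and −0.14 in KO1.8, where it was not called. LAMA5 was higher by 1.71 ± 0.11, with NTC minus Par at −1.57. For each of these changes the edgeR adjusted p was 0.000311 or less.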

How the data were processed

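Polyadenylated RNA was sequenced from 18 libraries of SKmel147 and 501mel melanoma lines; the library kit was directional, per the labels' protocols. The authors deposited raw read counts per gene symbol, made with STAR 2.6.0 and featureCounts on the builds GRCh37 or hg19, per the submitters' processing notes. Strand setting and annotation release: not given in the sources used here. Columns headed NTC in the SKmel147 table were taken as the samples titled NT. No column was left out (0).

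Tests on these counts used edgeR 4.0.16 under R 4.3.3, with TMM scaling, filterByExpr by line, 1 coefficient per line and the quasi-likelihood test, with BH adjustment over all genes tested. KO minus controls weights each KO line equally and each of the 2 control lines equally. The comparison between cell lines and the difference of KO effects came from a joint fit. The fit was tested on simulated data with known changes.

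Alternatives were DESeq2 1.42.0, limma 3.58.1 voom with the line as block, the line as replicate, no filter, 1 control line in place of both, omission of each library or KO line, a replicate block, a 2-fold limit, and a correction for GC content and length from GENCODE 29 (35401 of 56629 symbols matched, 1334 through a synonym). Promoter windows came from RefSeq on GRCh38.p14.

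The 37 members, the other gene lists and the tests were chosen with earlier results of these data known. Values by library, or their range, are given for TNS1, for up to 12 members per cell line called on the mean and in each KO line, for up to 6 members per direction between the control lines, for 3 members of the interaction and up to 2 per pair of KO lines; other members were named to account for all of them. From the other lists, up to 4 genes per direction were eligible, by smallest p.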

Additional observations from a re-analysis of the deposited data

Results flagged for a closer look

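For 12 members the KO effect, KO lines minus control lines on the log2 scale, differed between the cell lines by the interaction term of the joint edgeR fit (BH-adjusted p under 0.05 over all 19518 genes tested). SKmel147 minus 501mel was positive for 5 of them: the collagen receptor subunits ITGA1 (2.26) and ITGA2 (1.59), the tensin TNS3 (1.41), α-parvin PARVA (0.96) and the β subunit ITGB5 (0.53). It was negative for 7: TNS1 (−5.13), ITGA10 (−2.68), the laminin receptor subunit ITGA7 (−0.87), TLN2 (−0.72), FERMT2 (−0.69), PXN (−0.67) and ZYX (−0.53).

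TNS1 was chosen for its rise in 501mel, so its value is a description, and it had at most 9 counts in any SKmel147 library. ITGA10 passed the filter in 501mel only through its high KO libraries, so its value is a description too. The differences of ZYX and PXN stand beside a large gap between the SKmel147 control lines, and that of ITGB5 beside 501mel KO lines on opposite sides of the controls. What part these had was not tested.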

How the results depend on the processing

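Counts of members called in SKmel147 KO minus controls (11) were 5 against NT alone, 7 without the line KO1.5, 0 with the line as replicate, 1 with voom and 1 over 2-fold. For 501mel (17) they were 0 with the line as replicate, 6 with voom and 6 over 2-fold, and for the difference of KO effects (12) they were 0, 4 and 5 under the same 3 settings. Members called in every SKmel147 KO line (3) became 6 with the GC and length correction, 5 against Par alone and 0 over 2-fold, and those in every 501mel KO line (12) became 20 without KO1.8, where 1 line remains, and 4 over 2-fold. A 2-fold limit left 2 for NT minus Par (7), 1 for NTC minus Par (3), 4 for KO5.2 minus KO1.8 (17) and 0 for the SKmel147 pairs (3). Those pairs had 7 with the DESeq2 Wald test, 5 without the filter, 11 with the GC and length correction, 1 without the line KO1.4, 1 without KO1.5 and 0 without KO3.20. Apart from settings that leave fewer lines, samples or folds, the cause was not tested.

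With 1 library left out in turn, counts ranged from 6 to 10 for SKmel147 KO minus controls, 16 to 17 for 501mel, 0 to 4 for every SKmel147 KO line, 10 to 12 for every 501mel KO line, 4 to 9 for NT minus Par, 3 to 4 for NTC minus Par, 11 to 14 for the difference of KO effects, 26 to 28 between the control lines, 15 to 19 for KO5.2 minus KO1.8 and 0 to 5 for the SKmel147 pairs.

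The log2 change turned sign for ITGA5 (0.012) and PXN (0.10) in SKmel147 against NT alone, and in 501mel for ITGAV without KO1.8 (0.19), PTK2 without KO5.2 (−0.087) and TLN1 without KO5.2 (0.056). The calls of FERMT2, ITGA1, PXN and ITGAM in SKmel147 were each lost under 9 or more of the alternatives, single libraries included. Among genes of the other lists, in settings chosen after seeing the data, TNC turned sign against NT alone (0.010), and in 501mel KANK1 (0.13) and FN1 (−0.26) did without KO5.2 and SPP1 against Par alone (−0.23) and without KO1.8 (−0.27). For the named members together, 120 alternatives lost a call and 5 turned its sign.

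Replicate numbers gave no pairing common to all lines: deviations of same-numbered libraries correlated at −0.267 to 0.324 in SKmel147 and −0.0251 to 0.138 in 501mel. In SKmel147, Par, NT and KO1.5 correlated with each other at 0.164 to 0.324. KO1.4 and KO3.20 correlated with those lines at −0.267 to −0.110. Whether libraries of different lines share a source of spread was not tested. With a replicate block the counts were 12 for SKmel147, 17 for 501mel, 2 and 13 for every KO line, 12 for the difference of KO effects and 28 between the control lines. Depth limits members near the filter: ITGAM, ITGAX, ITGB2 and, in 501mel controls, ITGA10 rest on few counts.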
